A study of Mus musculus with 3 samples.

Results

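The 32 genes described here encode the glucose and lactate carriers, the glycolytic enzymes and their regulators, the kinases of pyruvate dehydrogenase, and the oxygen-sensing factor HIF with some of its partners and targets. They were taken by gene symbol from a fixed list of names, and the rule uses no measured value. All 32 symbols were found among 55536 annotated genes, of which 22028 are protein-coding, under 33 gene entries. Aldoa has a further entry with 0 counts in every library, and its counted entry was used.

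The RNA came from the chromatin fraction of macrophages that had been differentiated from C57BL/6J bone marrow, which are primary phagocytes. The cells had been stimulated with Lipid A, the part of lipopolysaccharide that the receptor TLR4 recognises, at 100 ng/ml for 120 min. RNA depleted of ribosomal RNA was sequenced from 3 libraries, labelled biological replicates 1, 2 and 3, made from 1 µg, 250 ng and 500 ng of RNA. The labels give all 3 libraries the same donor, do not state the sex or age of the mice, and do not say whether the cultures were separate, so each spread and p below is one between these libraries and could be technical. There was 1 group, so every level below belongs to stimulated cells and no unstimulated level was analysed here.

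Glycolysis splits glucose into pyruvate in the cytosol, and its flux is set mainly where glucose enters the cell, at hexokinase, at phosphofructokinase and at pyruvate kinase. Macrophages stimulated through TLR4 are known to raise glycolysis, to pass pyruvate to lactate and to accumulate the subunit HIF-α, whose turnover is otherwise driven by prolyl hydroxylases (Egln genes). Chromatin RNA consists largely of transcripts that are still attached to their template or have not left it, so its levels stand closer to ongoing transcription and splicing than those of whole-cell RNA, in which long-lived mRNAs accumulate.

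Levels are given as TPM, an abundance scaled for transcript length and to a fixed total per library, as mean ± SD over the 3 libraries (n = 3). Libraries held 19751051, 20372850 and 21984526 expected counts in annotated genes. All 10 macrophage markers had a mean of at least 5 TPM, the highest means being those of Lyz2, Msr1 and Adgre1. The lead of Lyz2, at 334 ± 468 TPM, came from replicate 2 alone, where it stood at 873 TPM. In replicates 1 and 3 it stood below both Msr1, at 169 and 237 TPM, and Adgre1, at 203 and 137 TPM. In bulk RNA, fewer cells of a type and less RNA per cell cannot be told apart. Markers of other cells were low by the main deposited quantification. The summed TPM of 6 neutrophil markers lay between 0.27 and 2.67, with Ly6g and Cxcr2 at 0. That of 6 B cell markers lay between 0.11 and 0.88. Of 6 T cell markers Cd3e and Cd3g were at 0, while Cd4 and Lck stood at 3.47 ± 2.31 and 3.66 ± 1.46 TPM. By the other deposited quantification some markers stood higher, among them Lck at 7.07 and Cxcr2 at 3.91 TPM. Cd4 stood lower there, at 2.72 TPM. The sum of 6 erythroid markers reached 48.95 TPM in replicate 2 against 5.13 and 6.68 TPM, 45.6 TPM of it from the transferrin receptor gene Tfrc. The sums of 6 dendritic, 6 muscle, 6 neuron and glia and 6 stromal markers stayed at or below 1.60 TPM in each library. Replicate 2 stood apart in mitochondrially encoded mRNAs, whose 13 members summed to 5037 TPM against 426 and 512 TPM in replicates 1 and 3, and in ribosomal protein mRNAs, of which 79 of 79 tested were highest there. Results that rest on replicate 2 are therefore given with and without it.

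By mean level Hk3 led the set, followed by Pfkfb3, Pfkp, Slc2a6, Eno2, Hk2 and Pkm. Other genes of the same steps stood far lower, among them Slc2a1, Pfkl and Pfkm, and in replicate 2 Gapdh stood above Hk2 and Pkm. Of the 32 genes, 25 had a mean of at least 1 TPM, 30 of at least 0.1 TPM and 18 of at least 5 TPM. Their median was 10.3 ± 7.46 TPM, with 5.50, 18.9 and 6.43 TPM in replicates 1, 2 and 3, beside 7.40 ± 1.43 TPM over the 9143 protein-coding genes with a mean of at least 1 TPM, whose medians in these libraries were 5.76, 8.34 and 8.10 TPM. The set thus lay above those genes in replicate 2 and below them in replicates 1 and 3. The threshold chose those 9143 genes and not the 32, so the medians are set side by side only as a description.

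**Figure D1:**
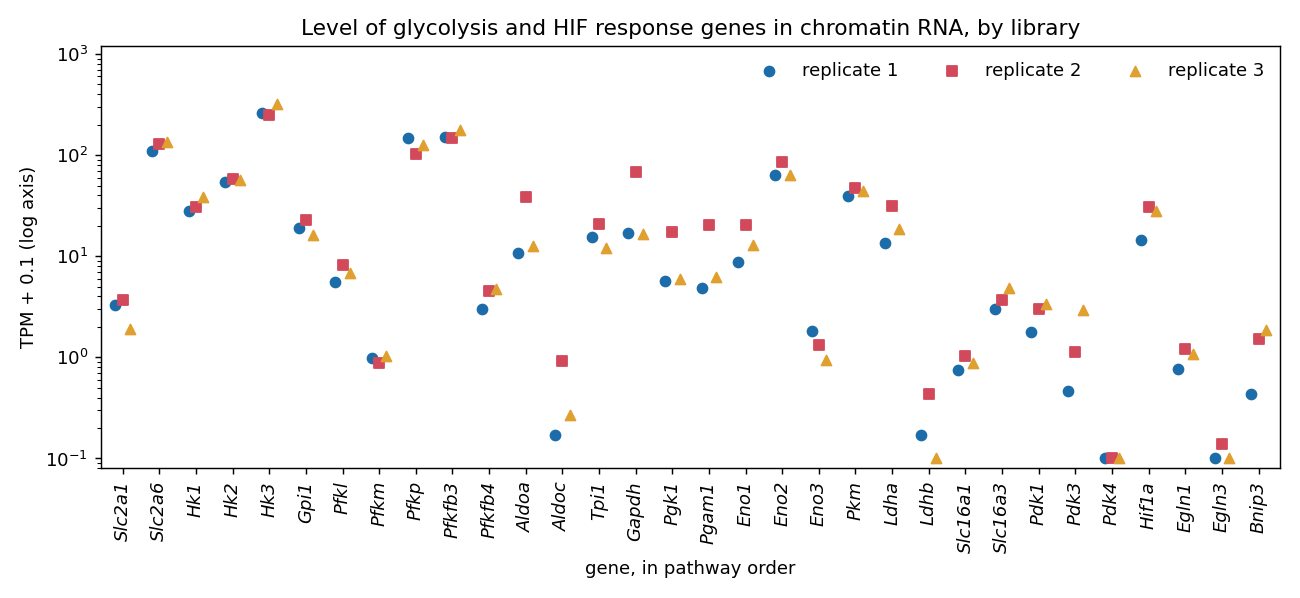
TPM + 0.1 on a log axis for each of the 32 genes in replicates 1 (circles), 2 (squares) and 3 (triangles), in pathway order. Hk3 lies highest in every library at 246 to 323 TPM, and the genes from Aldoa to Eno1 have their replicate 2 point above the others.

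Glucose crosses membranes through carriers of the Slc2a family. Slc2a6, a carrier of the lysosomal membrane known for its induction in inflammatory macrophages, stood at 110, 128 and 133 TPM in replicates 1, 2 and 3. Slc2a1, the ubiquitous glucose carrier of the plasma membrane and a textbook HIF target, stood at 3.18, 3.62 and 1.81 TPM. Slc2a6 thus held 97.7% ± 0.834 of the summed TPM of both and was higher in 3 of 3 libraries. The smallest p that 3 libraries allow in an exact sign-flip test (two-sided) is 0.25, which is the p of this difference and of the leading isozyme over the next in each of the other families below.

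Hexokinases trap glucose in the cell by phosphorylation. Hk3, an isozyme typical of myeloid cells, stood at 258, 246 and 323 TPM, which placed its mean at rank 86 among all 22028 protein-coding genes. Hk2, the inducible isozyme, stood at 53.6, 57.3 and 56.7 TPM, and Hk1, the housekeeping isozyme bound to mitochondria, at 28.1, 30.6 and 38.3 TPM. The ranges of the 3 isozymes did not overlap. Hk3 held 75.6% ± 1.80 of the family's summed TPM, and its level exceeded that of Hk2 by 2.29 ± 0.20 on the log2(TPM + 0.1) scale. Its annotated span (mm10 chr13:55005985-55021385, minus strand) overlaps Unc5a on the other strand. The strand setting of the counting is not given in the sources used here, so reads of such partners cannot be told apart, and Unc5a itself was listed at 16.5 TPM.

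The first committed step is phosphofructokinase, which has 3 isozymes. Pfkp, the platelet form, stood at 149, 103 and 125 TPM. Pfkl, the liver form, stood at 5.44, 8.01 and 6.68 TPM, and Pfkm, the muscle form, at 0.88, 0.78 and 0.93 TPM. Pfkp held 94.1% ± 1.90 of the family's TPM in a gene whose span (chr13:6579768-6648777, minus strand) overlaps Pitrm1 on the other strand, listed at 17.7 TPM. Pfkm overlaps Senp1 on the other strand, listed at 28.1 TPM, and its mean was 4.04 times as high by the other deposited quantification (3.49 TPM), the largest such ratio of the set.

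Pfkfb3 and Pfkfb4 make the metabolite that activates phosphofructokinase. Pfkfb3, the form with the highest kinase activity and induced by inflammatory signals and by HIF, stood at 152, 149 and 175 TPM. Pfkfb4, a HIF target with both kinase and phosphatase activity, stood at 2.89, 4.44 and 4.64 TPM. Pfkfb3 held 97.6% ± 0.526 of the TPM of both.

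Gpi1, which turns glucose phosphate into fructose phosphate, stood at 19.1, 22.7 and 16.2 TPM. Aldoa, the aldolase that splits the sugar into triose phosphates, stood at 10.8, 38.0 and 12.6 TPM, and Aldoc, the aldolase of the brain, at 0.07, 0.81 and 0.17 TPM from 4, 30 and 3 counts. Both aldolases were highest in replicate 2, and Aldoa held 98.6% ± 0.720 of their TPM. Tpi1, which interconverts the triose phosphates, stood at 15.42, 20.96 and 11.92 TPM.

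Of the payoff genes, Gapdh, Pgk1 and Pgam1 showed a wide spread between libraries, as Aldoa did. Eno2 and Pkm, given below, spread less. Gapdh, the dehydrogenase of glyceraldehyde phosphate, stood at 16.9, 67.6 and 16.5 TPM. Pgk1, which makes the first ATP of the pathway, stood at 5.56, 17.4 and 5.87 TPM, and Pgam1, the phosphoglycerate mutase, at 4.75, 20.3 and 6.17 TPM. In each of these genes replicates 1 and 3 lay close together and replicate 2 lay above both. Without replicate 2 the mean was 16.7 TPM for Gapdh in place of 33.7 ± 29.4, 11.7 TPM for Aldoa in place of 20.4 ± 15.2, 5.46 TPM for Pgam1 in place of 10.4 ± 8.61, and 5.71 TPM for Pgk1 in place of 9.63 ± 6.78. These genes also share sequence with copies elsewhere. Of the 50-base windows of its transcripts, Pgk1 shared 53.9% with other annotated genes, among them the processed pseudogene Gm5537, listed at 1.52, 7.14 and 1.49 TPM. Pgam1 shared 36.2% of its windows and Gapdh 24.7%, so how reads were split between these genes and their copies is uncertain. Gapdh also overlaps Iffo1 on the other strand, listed at 13.4 TPM with 552, 637 and 768 counts. Gapdh itself had 361, 1375 and 483 expected counts in replicates 1, 2 and 3.

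Enolase, which forms phosphoenolpyruvate, was led by Eno2. Eno2, the form best known from neurons and also described as a HIF target, stood at 63.3, 85.8 and 63.5 TPM. Eno1, the form of most tissues, stood at 8.67, 20.3 and 12.7 TPM, and Eno3, the muscle form, at 1.72, 1.22 and 0.84 TPM. The ranges of the 3 genes did not overlap, and Eno2 held 82.8% ± 2.98 of their TPM. Of 6 neuron and glia markers, Syn1 was the highest at 1.17 ± 0.403 TPM, and Rbfox3, Gfap, Aqp4 and Snap25 were at 0. Eno1 shared 26.0% of its windows with other genes, chiefly with Eno1b, whereas Eno2 shared 1 window of 5166.

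**Figure D2:**
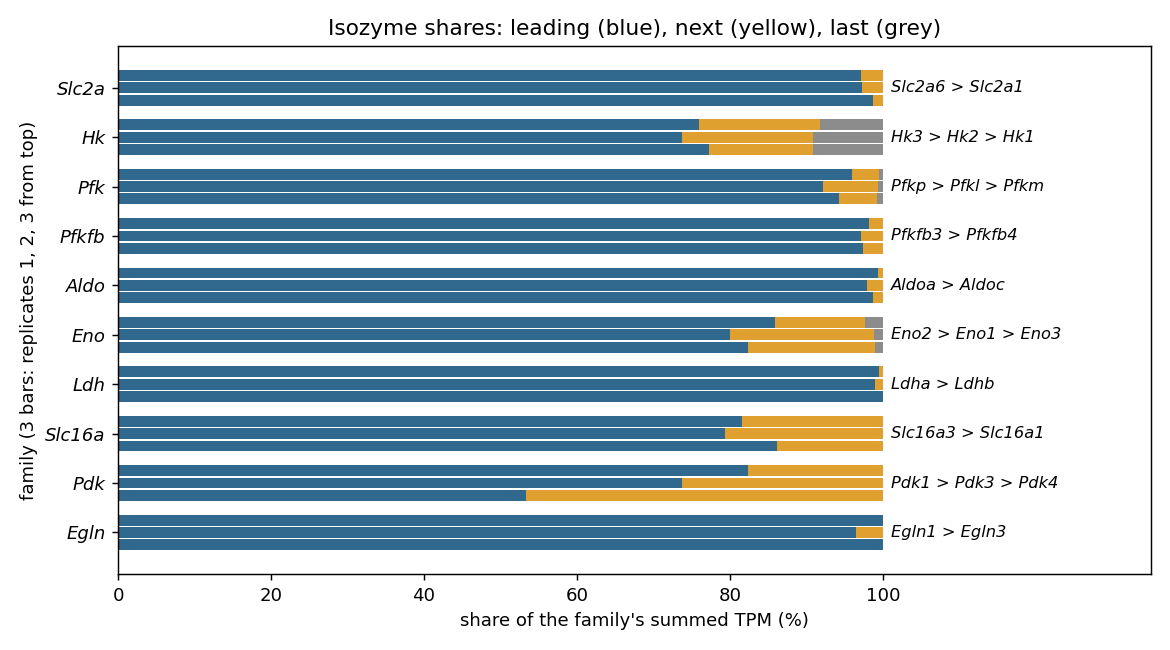
Share of each isozyme in the summed TPM of its family (%), with 3 bars per family for replicates 1, 2 and 3 from the top and the order of the isozymes at the right. Slc2a6, Hk3, Pfkp, Pfkfb3 and Eno2 lead their families in every library, while the share of Pdk1 ranges from 53.4% to 82.4%.

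Pyruvate kinase makes pyruvate and ATP, and Pkm stood at 39.7, 47.5 and 43.6 TPM. Pkm shared 25.8% of its windows with other genes, among them Gm49759 (12.1%), which overlaps it on the same strand. Gm49759 was listed with 527, 544 and 923 counts, beside 1685, 1903 and 1586 for Pkm. How reads were split between these genes is therefore uncertain. The transcripts of Pkm carry 1 of 2 mutually exclusive exons. The M1 exon is typical of muscle and brain, and the M2 exon of proliferating cells and activated macrophages, where the enzyme it encodes can be switched between a more and a less active state. On the plus strand of mm10 the M1 exon lies at chr9:59675029-59675195 (isoform Pkm-202) and the M2 exon at chr9:59675568-59675734 (isoform Pkm-201). Both are coding exons of 167 bases and are printed from the GENCODE M21 transcripts because the isoform shares rest on reads that tell them apart. Capitals mark the positions at which they differ, which leaves 103 identical positions (61.7%).
M1 exon: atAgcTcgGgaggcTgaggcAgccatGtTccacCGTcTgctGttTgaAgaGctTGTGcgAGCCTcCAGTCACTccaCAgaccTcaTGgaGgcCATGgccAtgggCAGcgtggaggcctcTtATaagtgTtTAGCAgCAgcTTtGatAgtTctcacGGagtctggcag
M2 exon: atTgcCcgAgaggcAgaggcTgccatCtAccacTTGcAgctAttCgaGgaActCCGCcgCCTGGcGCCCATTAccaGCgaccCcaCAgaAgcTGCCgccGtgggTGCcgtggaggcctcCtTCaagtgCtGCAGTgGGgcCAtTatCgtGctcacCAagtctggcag
Isoforms with the M2 exon had 14.2, 28.9 and 14.7 TPM and isoforms with the M1 exon 9.96, 3.59 and 3.59 TPM in replicates 1, 2 and 3. Isoforms with neither exon, among them retained-intron models, had 15.5, 14.9 and 25.3 TPM. The M2 share of the TPM that could be assigned to either exon was 58.8%, 89.0% and 80.4%, or 76.0% ± 15.6. M2 isoforms were therefore higher in 3 of 3 libraries, with replicate 1 the lowest. Leaving out replicate 1, 2 or 3 gave 84.7%, 69.6% or 73.9%, and the other quantification gave 76.2% ± 12.4. Protein-coding isoforms only gave 77.6% ± 16.7. Chromatin RNA that is not yet spliced at these exons holds both of them, so the share does not measure exon choice alone.

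Lactate dehydrogenase turns pyruvate into lactate. Ldha, a HIF target that encodes the subunit favouring lactate formation, stood at 13.6, 30.9 and 18.7 TPM. Ldhb stood at 0.07, 0.33 and 0 TPM from 1, 4 and 0 counts, where a count of 0 in replicate 3 allows up to 0.136 CPM (counts scaled to the library total), for counting error only. Ldha held 99.5% ± 0.528 of their TPM. Of the carriers that move lactate across the plasma membrane, Slc16a3, the hypoxia-inducible exporter of glycolytic cells, stood at 2.89, 3.57 and 4.80 TPM and Slc16a1, the carrier of most tissues, at 0.65, 0.93 and 0.77 TPM. Slc16a3 held 82.4% ± 3.48 of the TPM of both.

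Pyruvate dehydrogenase kinases keep pyruvate out of mitochondria. Pdk1, a HIF target, stood at 1.68, 2.89 and 3.26 TPM and Pdk3 at 0.36, 1.03 and 2.85 TPM, so their ranges overlapped. Pdk1 had the higher level in each library, but isoforms annotated as processed transcripts, which have no open reading frame, held 76.9% ± 11.8 of its TPM. With protein-coding isoforms only, the share of Pdk1 in the family was 44.8% in place of 69.8% ± 14.9. The coding isoform Pdk1-201 stood at 0.42, 0.98 and 0.34 TPM and Pdk3-201 at 0.36, 0.90 and 0.86 TPM, so Pdk3 was the higher in replicate 3 only. Pdk4, the kinase of fasted tissues, had 0 counts in all 3 libraries, which allows up to 0.152, 0.147 and 0.136 CPM, for counting error only. The other quantification listed it at 0.868 TPM on average. Of its 50-base windows 1.40% occur in 110 other genes, among them Cflar, listed at 244 TPM.

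Hif1a, the oxygen-regulated subunit of HIF, stood at 14.5, 30.6 and 28.0 TPM. Of the prolyl hydroxylases that mark it for destruction, Egln1, the main oxygen sensor, stood at 0.66, 1.10 and 0.99 TPM, and Egln3, a strongly hypoxia-inducible form, had 0, 2 and 0 counts. Bnip3, a HIF target of mitochondrial clearance, stood at 0.33, 1.41 and 1.75 TPM from 4.65, 35.0 and 22.9 expected counts, and 16.5% of its windows occur in other genes.

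In the order of all 32 levels, Hk3 lay above Pfkfb3 and Pfkfb3 above Pfkp in ranges that did not overlap. Pfkp and Slc2a6 overlapped, and Slc2a6, Eno2, Hk2 and Pkm followed as separate steps. Below Pkm, neighbours in the order overlapped in every case except Pfkl and Pfkfb4, so the order of direct neighbours there is not resolved by these libraries. Genes further apart can be: Hk1 lay above Gpi1 and Pfkl, and Pfkfb4 above Egln1 and Ldhb, in ranges that did not overlap.

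Promoters are shown for the genes with the highest hexokinase and glucose carrier levels and for Ldha, a textbook HIF target, because HIF binds the core ACGTG or GCGTG. RefSeq windows on GRCm38.p6, from 250 bases before to 50 after each annotated start, were found for all 32 genes, 45 windows in all. Each runs 5′ to 3′ on the gene's strand, and capitals mark ACGTG or GCGTG and the reverse complement of either, CACGT or CACGC. Both strands were searched, and the palindrome CACGTG counts on each strand.
Hk3, chr13:55021336-55021635, minus strand: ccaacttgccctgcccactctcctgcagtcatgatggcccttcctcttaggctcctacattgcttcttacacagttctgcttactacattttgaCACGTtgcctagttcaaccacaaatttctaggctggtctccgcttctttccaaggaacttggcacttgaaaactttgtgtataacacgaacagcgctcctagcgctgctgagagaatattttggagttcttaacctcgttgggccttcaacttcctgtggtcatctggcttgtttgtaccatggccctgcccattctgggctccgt
Slc2a6, chr2:27027949-27028248, minus strand: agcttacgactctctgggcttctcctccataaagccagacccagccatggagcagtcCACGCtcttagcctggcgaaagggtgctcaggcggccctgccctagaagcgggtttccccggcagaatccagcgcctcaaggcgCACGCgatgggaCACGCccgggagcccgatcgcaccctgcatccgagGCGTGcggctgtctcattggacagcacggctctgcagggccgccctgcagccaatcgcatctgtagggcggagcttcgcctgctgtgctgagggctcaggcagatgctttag
Ldha, chr7:46845554-46845853, plus strand: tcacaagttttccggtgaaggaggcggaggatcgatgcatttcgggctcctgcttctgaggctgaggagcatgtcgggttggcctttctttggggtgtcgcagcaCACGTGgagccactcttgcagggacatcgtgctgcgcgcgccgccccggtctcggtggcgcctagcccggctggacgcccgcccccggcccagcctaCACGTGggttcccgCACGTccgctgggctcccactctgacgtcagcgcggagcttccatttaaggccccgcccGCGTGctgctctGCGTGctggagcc
Hk3 had 1 match and Slc2a6 had 4, all GCGTG. For Ldha the window with the most matches is shown, which had 7. Its other window, chr7:46846832-46847131, had 2. At least 1 match was present in 37 of 45 windows of the set (82.2%), in 43.8% of all 32851 windows of that length, and in 62.6% of the 9386 windows of protein-coding genes with a mean of at least 1 TPM. At least 4 matches were present in 17.8%, 3.86% and 7.64% of these windows. The core contains CG, and the median number of CG pairs per window was 20 in the set, 7 in all windows and 21 in those of the protein-coding genes. The windows of Eno2, Tpi1 and Gpi1 held no match. A match is a description of letters and was not tied to binding or to a level here.

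The pathway outside the set was described by lists of related genes. Of 8 genes of the HIF machinery, 6 had a mean of at least 1 TPM, led by Arnt, the constitutive partner of Hif1a, at 34.3 ± 7.02 TPM, Egln2, a further prolyl hydroxylase, at 18.2 ± 2.17 TPM, and Cited2, which competes with HIF for a coactivator, at 17.2 ± 6.14 TPM. Hif3a was at 0 in all libraries. Egln2 thus exceeded both Egln1 and Egln3 in every library. Of 20 other HIF target genes 19 were matched and 11 had a mean of at least 1 TPM, led by the angiogenic factor Vegfa at 32.3 ± 5.28 TPM, the collagen hydroxylase P4ha1 at 23.8 ± 1.93 TPM and the histone demethylase Kdm3a at 22.4 ± 3.64 TPM.

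Of 16 other isozymes and tissue forms, 4 had a mean of at least 1 TPM, led by Adpgk, an ADP-dependent glucokinase, at 4.32 ± 0.862 TPM, then Pfkfb2 at 1.98 ± 0.326 TPM and Pfkfb1 at 1.68 ± 0.639 TPM. By the other quantification Pfkfb2 was listed at 9.57 TPM and Pgam2 at 5.20 TPM. Pgk2 and Ldhc were at 0 in all libraries. Branches that draw on glycolysis were present throughout: 8 of 8 pentose phosphate genes had a mean of at least 1 TPM, led by the phosphogluconate dehydrogenase Pgd at 65.0 ± 5.12 TPM, Rpe at 15.1 ± 3.66 TPM and the transketolase Tkt at 10.5 ± 3.56 TPM. All 8 genes for the entry of pyruvate into mitochondria also passed, led by the pyruvate carrier subunit Mpc1 at 30.1 ± 11.1 TPM, Dld at 15.2 ± 4.03 TPM and Pdhb at 14.1 ± 1.59 TPM. All 10 genes of the citric acid cycle passed, among them Sdha at 24.2 ± 6.21 TPM and Cs at 15.9 ± 4.14 TPM. Of 10 genes of glycogen metabolism and gluconeogenesis 8 passed, led by the glycogen phosphorylase Pygb at 22.5 ± 2.67 TPM, Ugp2 at 9.07 ± 3.34 TPM and Gbe1 at 7.72 ± 1.24 TPM.

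The 3 libraries differed by more than counting error in most of the genes. Of the 29 with a mean of at least 10 counts, 26 passed a chi-square test of equal expression after TMM scaling, with p adjusted over all genes tested by the Benjamini-Hochberg method. The same test called 68.8% of all 14200 genes tested, so most genes differed between these libraries. Pfkfb4, Slc16a1 and Egln1 did not pass, and Ldhb, Pdk4 and Egln3 had too few counts to be tested. With a coefficient of variation of at least 0.2 in addition, 18 of 29 passed beside 44.7% of all genes tested. A test on reads compares these libraries and not conditions.

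After TMM scaling, 16 of the 29 genes were highest in replicate 2, beside 35.2% of all genes tested. Replicate 1 was highest in 11, beside 27.7%, and replicate 3 in 2, Slc16a3 and Pdk3, beside 37.2%. The departure of a library is the log2 difference of scaled counts from the mean of the other libraries. Its median over the 29 genes was 0.07, 0.33 and −0.45 in replicates 1, 2 and 3, beside −0.12, 0.07 and 0.01 over all genes tested. In replicate 2 the median was 3.42 over mitochondrially encoded mRNAs, 1.55 over ribosomal protein mRNAs and −0.20 over 24 interferon response genes. The summed TPM of the 10 macrophage markers was 643, 1778 and 601, and 7 of the 10 were highest in replicate 2. The part of these groups in the departures below was not tested.

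Within the set the departures of replicate 2 were uneven. Among the genes of glycolysis and lactate the largest were 2.54 in Aldoc, 2.03 in Pgam1, 1.74 in Gapdh and 1.68 in Aldoa. Pgk1 (1.65), Eno1 (1.18), Ldha (1.17) and Tpi1 (0.89) followed. Eno2 and Eno3, also of lower glycolysis, had only 0.23 and 0.18. Gapdh had 419, 1402 and 417 scaled counts (adjusted p 7.94e-187, chi-square test), so its excess lay in replicate 2 alone, and without that library Gapdh was no longer called. Bnip3 (1.56) and Hif1a (0.71) were also highest there. In the Slc2a carriers and at hexokinase, phosphofructokinase, its activator and pyruvate kinase the departures were smaller and mixed. They were −0.48 in Pfkp, −0.33 in Hk3, −0.28 in Pfkm, −0.17 in Pfkfb3, −0.12 in Hk1, −0.05 in Slc2a6 and −0.02 in Hk2, but 0.56 in Slc2a1, 0.27 in Pfkl, 0.25 in Pkm and 0.15 in Pfkfb4. The 7 genes with a negative value were highest in replicate 1 after TMM scaling, whereas on TPM only Pfkp among them was highest there. Over the 29 genes, 11 were highest in replicate 1 under TMM and 2 on TPM. Pfkp had 11705, 6870 and 7840 scaled counts, in which replicate 1 stood above the others.

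By role, the median departure of replicate 2 was 1.18 over the 7 genes of lower glycolysis and −0.12 over the 3 hexokinases. It was 0.71 in the HIF pathway, 0.48 in upper glycolysis and 0.44 in pyruvate dehydrogenase kinases. Lactate genes had 0.29, glucose carriers 0.26, and Pfkfb3 with Pfkfb4 −0.01. The departures depended on the scaling and on the quantification. Under TMM, DESeq2 size factors, TPM and the TPM of the other quantification, the sign was positive throughout in 13 of 29 genes, among them Aldoa, Aldoc, Gapdh, Pgk1, Pgam1, Eno1, Ldha, Hif1a and Bnip3. It was negative throughout in 5, namely Hk1, Hk3, Pfkm, Pfkp and Pfkfb3, and it flipped in 11, among them Hk2, Slc2a6 and Tpi1. On the TPM of the other quantification the departure was 1.38 in Aldoc, 1.14 in Pgam1, 1.06 in Gapdh, 1.01 in Aldoa and 0.87 in Pgk1, but only 0.21 in Eno1, 0.14 in Bnip3, 0.10 in Hif1a, 0.09 in Ldha and −0.01 in Tpi1. On the TPM of the other quantification, 6 of 29 genes were highest in replicate 2 and 20 in replicate 3, against 17 and 10 on the main TPM. No share over all genes was computed for the counts on TPM or for the signs, so they describe these 29 genes only. The departure also moved with the length of the gene. Its median was 1.29 over the 8 tested genes that span under 10 kb, 0.48 over 11 of 10 to 30 kb and 0.06 over 10 longer ones. Over 11022 protein-coding genes the medians of these classes were 0.26, 0.15 and 0.04.

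**Figure D3:**
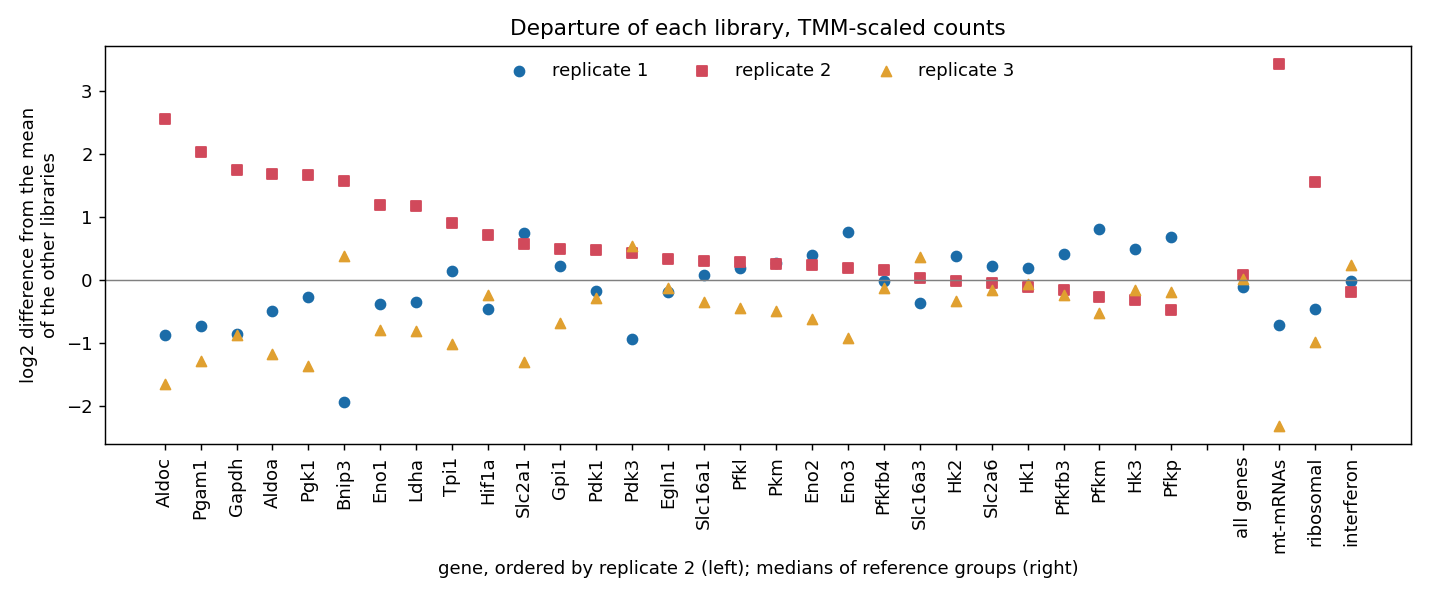
Log2 difference of each library's TMM-scaled counts from the mean of the other libraries, for the 29 genes tested in order of replicate 2 and for the medians of all genes, mitochondrially encoded mRNAs (mt-mRNAs), ribosomal protein mRNAs and interferon response genes. Replicate 2 (squares) runs from 2.54 in Aldoc to −0.48 in Pfkp.

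Isoforms annotated with a retained intron hold intron sequence that is removed from the mature mRNA, so their level beside that of protein-coding isoforms describes how much incompletely spliced RNA the annotation captures. Of the 32 genes, 17 have both isoform types and a mean of at least 50 counts, and limma with Benjamini-Hochberg adjustment over all 5603 such genes was used to test the log2 ratio of retained-intron to protein-coding TPM against 0. Retained-intron isoforms were higher in 4 of 17, beside 19.3% of all genes tested, and lower in 6 of 17, beside 29.7%. Both counts lay near the shares over all genes tested, so neither sets the 17 genes apart. The median log2 ratio was −0.65 over the 17 and −0.23 over all genes tested.

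The 4 genes with higher retained-intron isoforms were Pfkp, Gpi1, Pfkfb3 and Eno2. Pfkp had 108, 82.8 and 105 TPM in retained-intron isoforms and 39.8, 19.6 and 19.5 TPM in protein-coding ones, with a log2 ratio of 1.98 (SE 0.31, limma adjusted p 0.00455). Gpi1 had 13.1, 16.2 and 14.6 TPM against 5.33, 6.03 and 1.62 TPM, with a ratio of 1.93 (SE 0.43, limma adjusted p 0.0139). In both genes the 2 isoform types did not overlap in any pair of libraries. Pfkfb3 had a ratio of 1.11 (SE 0.27, limma adjusted p 0.0177) and Eno2 of 0.88 (SE 0.27, limma adjusted p 0.0378). The retained-intron isoforms with the highest level were Pfkp-212, Gpi1-211, Pfkfb3-211 and Eno2-211.

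The 6 genes with lower retained-intron isoforms were Pgam1 (log2 ratio −2.29), Pgk1 (−1.97), Hk1 (−1.90), Ldha (−1.69), Pkm (−1.37) and Slc16a3 (−1.04), with limma adjusted p between 0.00403 for Hk1 and 0.0307 for Ldha. Hk1 had 4.95, 6.24 and 9.77 TPM in retained-intron isoforms and 23.2, 24.4 and 28.6 TPM in protein-coding ones, without overlap. The calls of Pfkp, Gpi1 and Hk1 held under all 8 alternative settings. That of Pfkfb3 held under 5 of 8 and turned to −1.13 on expected counts, which are not divided by isoform length. Those of Pgam1, Pgk1, Pkm, Ldha and Eno2 held under 7, 6, 6, 5 and 4 of 8 and that of Slc16a3 under 4 of 7, each with the same sign throughout. With replicate 1, 2 or 3 left out, 2, 2 and 3 genes were called higher, beside 11.3%, 16.9% and 14.7% of all genes tested, and 1, 3 and 6 lower, beside 16.7%, 22.8% and 32.4%.

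**Figure D4:**
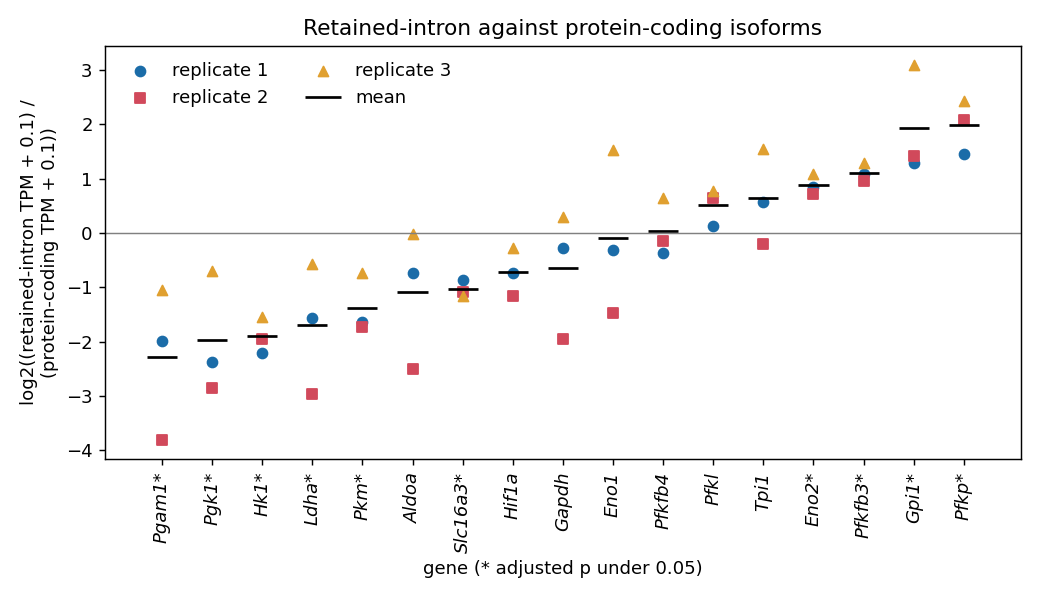
Log2 ratio of retained-intron to protein-coding TPM (each + 0.1) in replicates 1, 2 and 3 for the 17 genes tested, with their mean as a bar and genes past the threshold marked by a star. Means run from −2.29 in Pgam1 to 1.98 in Pfkp, and the replicate 2 point of Aldoa, Gapdh and Ldha lies below the others.

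Replicate 2 differed by isoform type. Aldoa had 6.62, 32.4 and 6.34 TPM in protein-coding isoforms and 3.94, 5.65 and 6.22 TPM in retained-intron ones. Ldha had 10.2, 27.5 and 11.2 TPM in protein-coding isoforms and 3.39, 3.46 and 7.49 TPM in retained-intron ones. In both genes the excess of replicate 2 was thus seen in protein-coding isoforms and not in retained-intron ones by the main quantification. By the other quantification, retained-intron isoforms held 42.7%, 19.0% and 40.5% of the TPM of Aldoa, lowest in replicate 2. Those of Ldha held 27.5%, 28.4% and 48.7%, so replicate 2 was not the lowest there. Over the 17 genes the median difference of replicate 2 from the mean of the others was 0.82 on the log2(TPM + 0.1) scale for protein-coding isoforms and 0.10 for retained-intron ones, beside 0.24 and 0.02 over all 5603 genes. The ratio was lowest in replicate 2 in 11 of 17 genes, beside 43.1% of all genes tested.

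**Figure D5:**
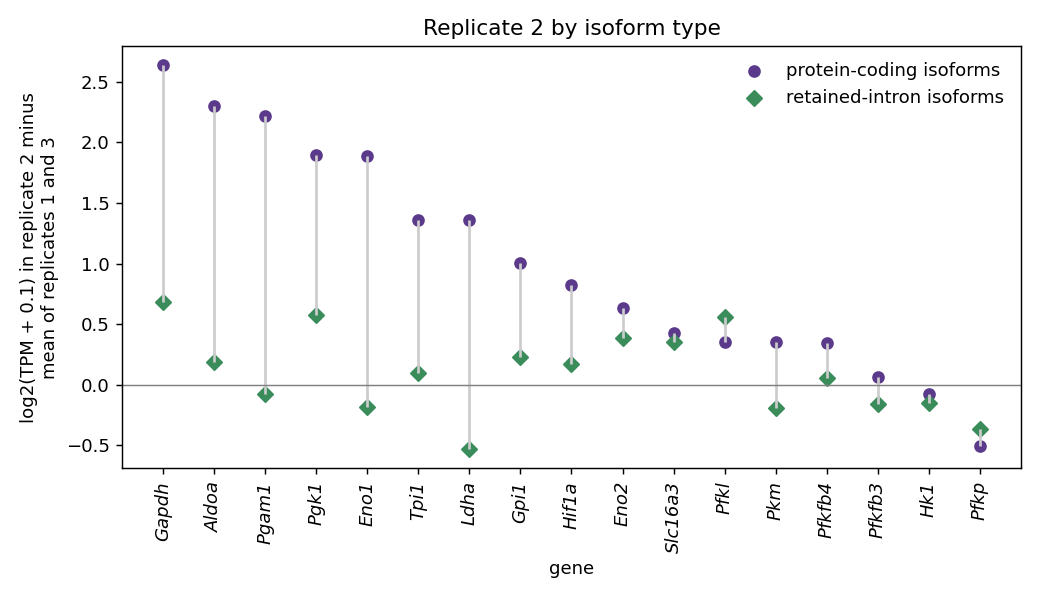
Log2(TPM + 0.1) in replicate 2 minus the mean of replicates 1 and 3, for protein-coding isoforms (circles) and retained-intron isoforms (diamonds) of the 17 genes. Gapdh has 2.64 and 0.68, Ldha has 1.36 and −0.53, and Pfkp has −0.51 and −0.36.

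Slc2a6, Hk3, Hk2 and Pdk1 have no isoform annotated with a retained intron, and their other isoforms were described by class. In Slc2a6, processed transcripts held 71.1% ± 8.62 of the gene's TPM, led by Slc2a6-205 at 32.9, 43.8 and 52.2 TPM, and its protein-coding isoforms held 36.7%, 30.4% and 19.7%. In Hk3 protein-coding isoforms held 57.5% ± 8.24, but 40.9% ± 6.55 by the other quantification, where processed transcripts held 51.8% ± 7.48. Hk3-208 had the highest mean, at 87.2, 70.8 and 73.0 TPM, and Hk3-201 stood above it in replicate 3 with 81.6 TPM. In Hk2 protein-coding isoforms held 83.3% ± 3.49, led by Hk2-201 at 37.6, 40.3 and 39.1 TPM. By the main quantification the gene-level TPM of Slc2a6 therefore came mainly from isoforms that the annotation does not call coding. That of Hk2 came mainly from coding ones. By the other quantification coding isoforms held 50.7%, 43.1% and 39.8% in Slc2a6, so they were the larger part in replicate 1, and 100% in Hk2.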

How the data were processed

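Chromatin-fraction RNA of 3 libraries in 1 group was analysed, and samples were placed in it from the labels. The authors deposited, for each library, a gene and a transcript table of expected counts (reads shared out among features, not always whole) and TPM, in the layout of RSEM, made against mm10 with GENCODE M21 per the labels and the deposited notes. A further deposited transcript table of estimated counts and TPM, in the layout of kallisto, is the other quantification, which was summed per gene. The aligner and the strandedness of the counting were not given in the sources used here. Per-library depth was 19751051 to 21984526 expected counts in annotated genes, and entries with no annotated gene, at 0.845%, 0.282% and 0.179% of counts, were left out.

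The 32 genes and all lists were chosen with earlier results of these data known. All 32 are named, and of each pathway list the 3 highest by mean TPM and those at 0, except for a few genes that are not reported here. Ero1a matched no symbol. Expected counts were rounded and tested per gene against equal expression (chi-square, TMM factors from edgeR 4.0.16, mean of at least 10 counts, Benjamini-Hochberg, threshold 0.05). Log2 isoform ratios (pseudocount 0.1 TPM, mean of at least 50 counts) were tested with limma 3.58.1. Both tests were tested on simulated data. Changes of 1.5-fold and 3-fold in 1 library were recovered in 55% and 96% of cases, with 6 false calls in 14200 genes. Log2 isoform ratios of 2 and 4 were recovered in 50% and 81%, with 8 false calls in 5603 genes. A gene that was not called may therefore still differ. Departures used log2(TMM-scaled CPM + 0.1). A count of 0 was given a limit of 3 counts. Alternatives were DESeq2 1.42.0 size factors, the other quantification, other pseudocounts and count minima, expected counts, protein-coding isoforms only and leaving out each library. Sequences came from GENCODE M21 transcripts and from RefSeq.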

Additional observations from a re-analysis of the deposited data

How the results depend on the processing

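Leading isozymes kept their lead under every alternative run, except Pdk1. On protein-coding transcripts only, the share was 44.8% for Pdk1, 92.8% for Slc2a6, 68.5% for Hk3, 87.8% for Pfkp, 96.5% for Pfkfb3, 74.4% for Eno2 and 67.7% for Slc16a3. By the other quantification it was 95.9% for Slc2a6, 81.0% for Hk3, 92.0% for Pfkp, 76.0% for Eno2 and 89.4% for Slc16a3. On expected counts, with no division by length, it was 96.8% for Slc2a6, 66.9% for Hk3, 96.5% for Pfkp and 67.4% for Slc16a3. The median level of the 32 genes on the log2(TPM + 0.1) scale was 3.14, and 2.60 without replicate 2. It was 5.33 after rescaling over protein-coding genes only, which raises every gene by construction. With the other quantification, 16 of 32 gene means moved by more than 1 SD between libraries. The number of genes with retained-intron isoforms below protein-coding ones was 11 on expected counts, where the share over all genes tested was 57.9% in place of 29.7%. Leaving out each library gave 2 to 3 genes above and 1 to 6 below, with fewer samples in each fit. With DESeq2 factors 24 of 29 genes varied between libraries, beside 68% of all genes tested, and Slc16a3 and Pdk3 were no longer called. By the other quantification 28 of 30 varied, beside 58.3%. With a mean of at least 50 counts 21 of 24 varied, beside 80.2%, and with no count minimum 25 of 31, beside 43.7%. With replicate 1, 2 or 3 left out it was 19 of 29, 23 of 28 and 19 of 29, beside 47.5%, 54.7% and 49.6%. The median departure of replicate 1 was 0.16 with DESeq2 factors and 0.30 by the other quantification, in place of 0.07, and the cause was not tested. No paired analysis was possible because there was 1 group. Counts under 10 left Ldhb, Pdk4 and Egln3 untested.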
